A study of Homo sapiens with 4 samples.

Results

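IRF1, IRF2, IRF3, IRF4, IRF5, IRF7, IRF8 and BATF2 encode transcription factors of the interferon response, and their signals are described here on 4 arrays of PC3 cells with or without a knockdown of ALKBH3. Members were all probes whose RefSeq accession in the array annotation belongs to 1 of these 8 genes, since the spot files name probes by accession and hold no gene symbols. This gave 9 probes, 2 of them for IRF3, out of 34127 probes, of which 24910 could be named for 19102 genes. Probes annotated only by accessions of other databases could not be assigned to a gene, so further probes for these 8 genes are not analysed here.

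PC3 is an established prostate cancer cell line, and ALKBH3 is an AlkB family dioxygenase that removes methyl groups from alkylated nucleic acids. The cells had been infected for 48 h with lentivirus for an shRNA against ALKBH3 or for a control shRNA, which per the methods targets GFP, and RNA was taken after 48 h or 96 h of selection with puromycin. Both groups therefore carried a lentivirus, had passed the selection and expressed a hairpin, and which of several possible ALKBH3 hairpins was used is not given in the labels. Each shRNA was measured on 1 single-colour array per time point, so that each group has n = 2 arrays and the time points are its only repeat. Nothing in the labels says that samples came from separate cultures beyond the time point, and the p-values measure the spread between these arrays only. Both arrays of a time point shared a slide and scan, so slide and time point cannot be told apart, whereas each comparison of the shRNAs lies within a slide.

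Interferon regulatory factors (IRFs) share a DNA binding domain that reads the interferon-stimulated response element (ISRE). IRF3 and IRF7 wait in the cytoplasm until a kinase downstream of a nucleic acid sensor phosphorylates them and then switch on type I and type III interferon genes. Secreted interferon acts through JAK kinases and STAT proteins, and the STATs raise IRF1 and IRF7 in turn, which closes a feed-forward loop. IRF4 and IRF8 work mainly in lymphoid and myeloid cells, where they pair with BATF family proteins, and BATF2 is the BATF member known for induction by interferon.

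In these cells, signals of IRF1, IRF2, IRF3, IRF5, IRF7 and BATF2 were well above background on all 4 arrays, whereas those of IRF4 and IRF8 were not on any. With ALKBH3 shRNA, the BATF2 signal was 4.11-fold higher at 48 h and 1.55-fold higher at 96 h, and the IRF7 signal 2.01-fold and 1.42-fold higher. IRF1 was 1.61-fold higher at 48 h and 0.712-fold at 96 h, and IRF3 differed little. None of the 7 tested probes passed the cutoffs of at least 2-fold and an unadjusted limma p below 0.05 over the 4 arrays. BATF2 passed them when arrays were paired by time point (limma adjusted p = 0.117), in a fit that called 1.11% of all probes tested higher. Without the ALKBH3 shRNA array at 48 h the log2 fold change of BATF2 was 0.32.

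The knockdown itself was measured on both ALKBH3 probes. The first stood at -0.63 in control and -2.67 in knockdown cells at 48 h and at -0.61 and -2.68 at 96 h, each a log2 signal relative to the 75th percentile of its array. It fell by 2.05 on the log2 scale (SE 0.11, limma adjusted p = 0.228) and the other ALKBH3 probe fell by 1.63 (SE 0.13, limma adjusted p = 0.247), and both passed the cutoffs. The arrays resembled each other in brightness, with a 75th percentile between 2150 and 2394 intensity units and between 67.0% and 70.9% of probes well above background. Epithelial markers KRT8, KRT18 and EPCAM and the mesenchymal marker VIM were well above background on all 4 arrays, and KLK3, the PSA gene, was not on any. Of 9 blood cell markers on the array, 7 were also well above background on all 4 arrays, among them PTPRC and CD3E, so the software's background call alone does not mark a cell type. The log2 fold changes of these 7 lay between -0.09 and 0.28, and 0 passed the cutoffs. Those of KRT8, KRT18, EPCAM and VIM lay between -0.13 and 0.98, and 0 passed. The highest was that of EPCAM, with a difference of 0.96 at 48 h and 0.99 at 96 h. In RNA from a whole culture, fewer cells that express a gene and less of its RNA per cell cannot be told apart.

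Of the 9 member probes, 7, standing for 6 genes, were well above background on all 4 arrays, against 64.8% of all probes. Both probes that failed did so on all 4 arrays. The IRF4 probe, for a factor of plasma cells and activated lymphocytes (GRCh38.p14 chromosome 6, gene at 391752 to 411443), gave intensities of 4.80 and 5.55 in control and ALKBH3 knockdown cells at 48 h and of 6.64 and 6.38 at 96 h. The IRF8 probe, for a factor of monocytes, dendritic cells and B cells (chromosome 16, 85899162 to 85922609), gave 4.53 and 5.08 at 48 h and 6.43 and 5.78 at 96 h. All 8 of these intensities lay below the weakest signal well above background on their array, which was 18.6, 23.6, 25.8 and 25.0 in the same order of arrays. Neither gene has a usable fold change, because its signal was under that limit with either shRNA.

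**Figure D1:**
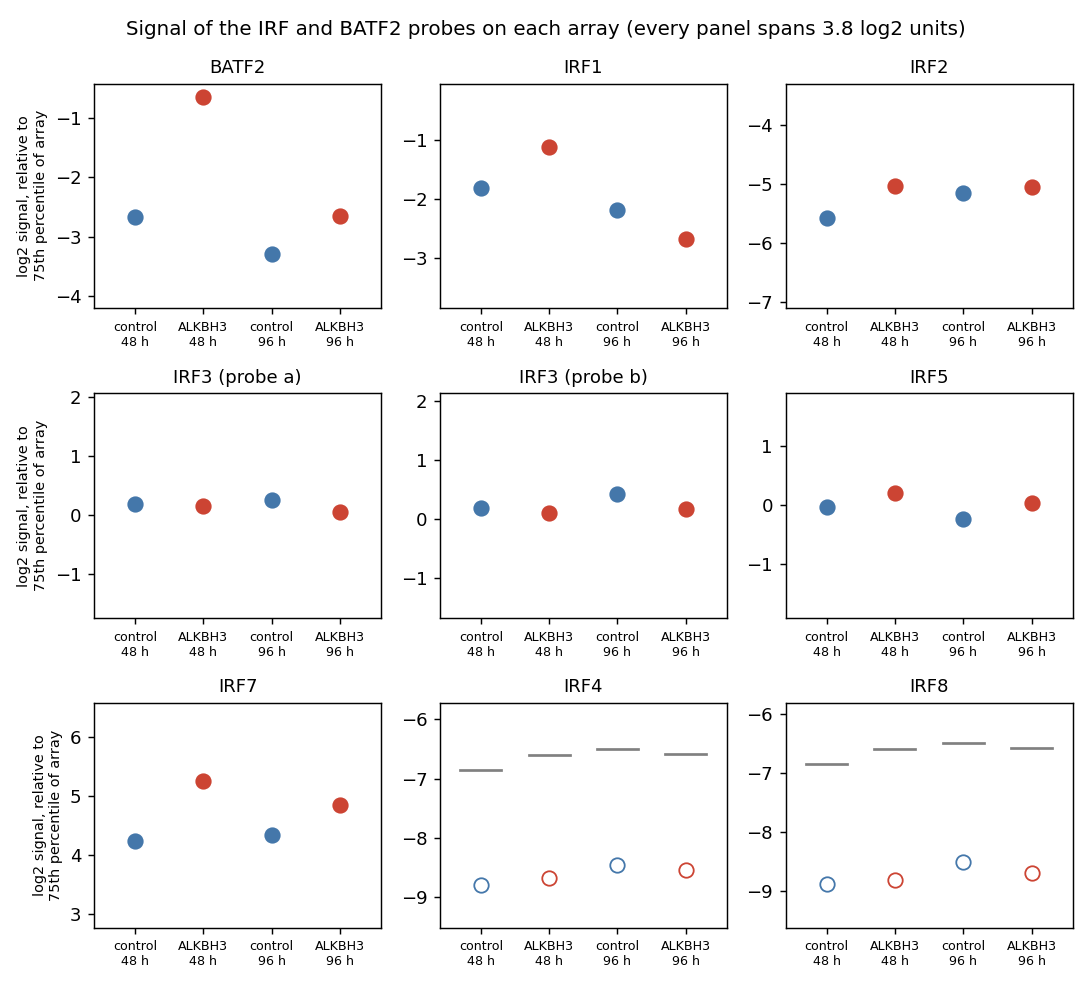
Log2 signal of each of the 9 member probes relative to the 75th percentile of its array (y axis) on the arrays with control (blue) and ALKBH3 (red) hairpins for both time points (x axis), 1 array per point; all panels span the same range, open circles are signals not well above background, and grey lines mark the weakest signal well above background on that array. The BATF2 signal with ALKBH3 shRNA at 48 h, -0.63, stands apart from the other 3 arrays, the IRF7 signals separate by shRNA, and IRF4 and IRF8 lie below the grey lines on all 4 arrays.

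IRF7, the IRF most closely tied to type I interferon amplification, lies on chromosome 11 (612555 to 615950). Its probe had intensities of 40509 and 86530 in control and ALKBH3 knockdown cells at 48 h and of 47093 and 68656 at 96 h, and 0 spots were saturated. The log2 signals were 4.24 and 5.24 at 48 h and 4.33 and 4.84 at 96 h. Both ALKBH3 shRNA arrays thus lay above both control arrays, with 0.51 between the nearest pair, whereas the control arrays differed by 0.09. The share of all probes whose groups separate in this way was not counted. Over the 4 arrays the signal was 1.69-fold higher, a log2 fold change of 0.76 (SE 0.18, 95% interval 0.29 to 1.23, limma unadjusted p = 0.00945, adjusted p = 0.444). IRF7 was the only member with an unadjusted p below 0.05, which 7.66% of all probes tested had, and its fold stayed under the 2-fold cutoff. With arrays paired by time point the adjusted limma p was 0.0703. At a lower cutoff of 1.5-fold IRF7 was the 1 member that passed, against 2.56% of all probes tested.

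IRF3, the constitutive partner of IRF7 in the first wave of interferon induction, lies on chromosome 19 (49659572 to 49665857) and has 2 probes. The first gave log2 signals of 0.18 and 0.15 in control and ALKBH3 knockdown cells at 48 h and of 0.24 and 0.04 at 96 h. The second gave 0.19 and 0.11 at 48 h and 0.43 and 0.18 at 96 h. On both probes the ALKBH3 shRNA arrays lay at or below the control arrays, by between 0.03 and 0.25. The fitted log2 fold changes were -0.12 (SE 0.12, 95% interval -0.44 to 0.20, limma adjusted p = 0.919) and -0.17 (SE 0.14, 95% interval -0.54 to 0.20, limma adjusted p = 0.885), and these intervals exclude a 2-fold change in either direction.

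IRF5, a factor downstream of Toll-like receptors and MYD88, lies on chromosome 7 (128937032 to 128950038). Its log2 signals were -0.05 and 0.19 in control and ALKBH3 knockdown cells at 48 h and -0.24 and 0.02 at 96 h. The nearest arrays of the groups lay 0.07 apart, less than the median SD of repeated spots on an array (between 0.0850 and 0.0967 log2 units). The differences were nearly equal, 0.24 at 48 h and 0.26 at 96 h. The log2 fold change was 0.25 (SE 0.14, 95% interval -0.12 to 0.62, limma adjusted p = 0.776). With arrays paired by time point the SE was 0.08 and the limma p 0.0341 unadjusted and 0.182 adjusted, at a fold of 1.19.

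IRF1, an early interferon gamma response gene and an activator of antigen presentation genes, lies on chromosome 5 (132481609 to 132490773). The 250 bases before its annotated start (GRCh38.p14, chr5:132490774-132491023, minus strand, from RefSeq) are shown because IRF1 is the member with opposite changes at the time points and is a textbook target of interferon gamma. Capitals mark a gamma-activated site (GAS, a motif that STAT dimers bind, searched as TTCNNNGAA), here TTCCCCGAA, at bases 124 to 116 before the start, and a match to the NF-kB motif, GGGGAATCCC, at bases 50 to 41.

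IRF1 promoter: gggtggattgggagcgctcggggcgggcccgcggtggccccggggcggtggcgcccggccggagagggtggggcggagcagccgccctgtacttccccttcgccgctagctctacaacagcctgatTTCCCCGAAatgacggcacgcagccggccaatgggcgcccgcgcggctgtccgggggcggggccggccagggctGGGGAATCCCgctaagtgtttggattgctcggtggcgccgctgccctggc

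On both strands of 35116 RefSeq windows of this length, GAS letters were found in 6.57%, the NF-kB motif in 9.96% and an ISRE, searched as GAAANNGAAA, in 3.02%. The IRF1 window holds no ISRE match in these letters. The sequence table holds windows for 5 of the 8 member genes, and the other 8 windows, of IRF4, IRF5, IRF8 and BATF2, hold none of the 3 motifs. Most of these belong to starts inside the gene, such as the only BATF2 window, 6694 bases from its 5′ end. A match describes letters and does not show that a factor was bound in PC3 cells.

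The IRF1 intensities were 613 and 1049 in control and ALKBH3 knockdown cells at 48 h and 518 and 377 at 96 h. Its log2 signals were -1.81 and -1.12 at 48 h and -2.18 and -2.67 at 96 h. The array with ALKBH3 shRNA was thus the highest of the 4 at 48 h and the lowest of the 4 at 96 h, and the groups overlapped. The difference was 0.69 at 48 h and -0.49 at 96 h, 1 array against 1 at each time point. IRF1 was the 1 tested member probe with opposite directions, which 31.3% of all probes tested had. Over the 4 arrays the log2 fold change was 0.10 (SE 0.53, 95% interval -1.31 to 1.51, limma adjusted p = 0.991), an interval that leaves a 2-fold change in either direction possible. Without the ALKBH3 shRNA array at 48 h the log2 fold change was -0.67, and without the control array at 96 h it was -0.08.

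IRF2, which competes with IRF1 for the same sites and often acts as a repressor, lies on chromosome 4 (184387729 to 184474550). Its intensities were low, 45.2 and 69.9 in control and ALKBH3 knockdown cells at 48 h and 66.1 and 72.5 at 96 h. The log2 signals were -5.57 and -5.03 at 48 h and -5.15 and -5.05 at 96 h. The control array at 48 h was the lowest, 0.43 below the next, and the other 3 lay close together. The log2 fold change was 0.32 (SE 0.18, 95% interval -0.16 to 0.80, limma adjusted p = 0.776). It was 0.03 with normexp background correction, 0.04 with the authors' normalized values, 0.11 without the control array at 48 h and 0.53 without the control array at 96 h.

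BATF2 is a basic leucine zipper protein that joins JUN proteins and IRF1 at composite sites and lies on chromosome 11 (64987945 to 64996971). Its intensities were 337 and 1476 in control and ALKBH3 knockdown cells at 48 h and 240 and 380 at 96 h. On the log2 scale the signals were -2.67 and -0.63 at 48 h and -3.29 and -2.66 at 96 h. One array, ALKBH3 shRNA at 48 h, stood 2.03 above the next, and the groups were otherwise separated by 0.01 only, between ALKBH3 shRNA at 96 h and control at 48 h. Over the 4 arrays BATF2 was 2.52-fold higher, a log2 fold change of 1.34 (SE 0.71, 95% interval -0.53 to 3.20, limma unadjusted p = 0.122, adjusted p = 0.759).

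The time point named in the labels pairs the arrays of a slide, and with this block the SE of BATF2 was 0.34 and its limma p was 0.0127 unadjusted and 0.117 adjusted. BATF2 was then the 1 member past the cutoffs, in a fit that called 1.11% of all probes tested higher, and 0 members reached an adjusted p below 0.05, which 2.95% of all probes did in either direction. Without the ALKBH3 shRNA array at 96 h BATF2 had a log2 fold change of 2.35 (limma unadjusted p = 0.000756, adjusted p = 0.191) and passed the cutoffs, but that fit holds 1 ALKBH3 shRNA array, which is assumed to vary like the 2 control arrays. Without the ALKBH3 shRNA array at 48 h it was 0.32, so the size of the BATF2 difference rests on that array.

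**Figure D2:**
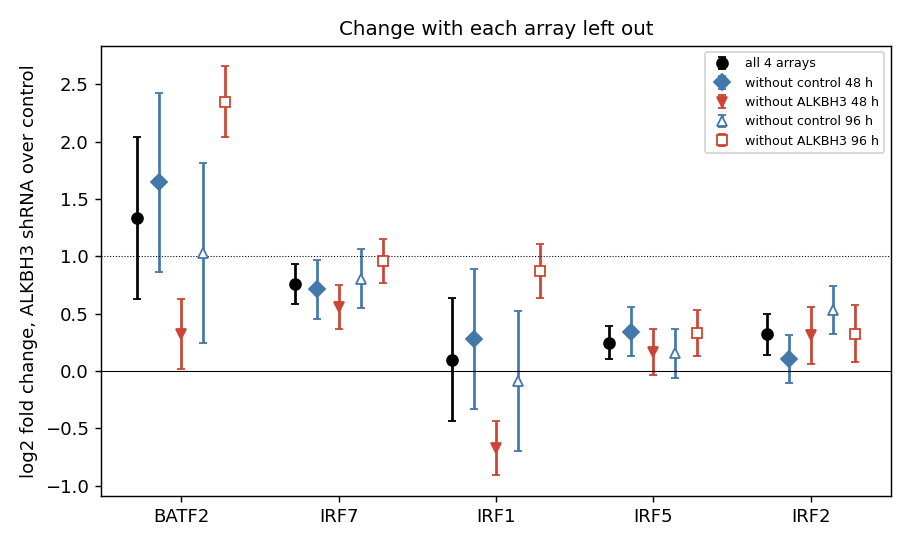
Log2 fold change of ALKBH3 shRNA over control (y axis) for 5 member genes (x axis) over the 4 arrays and after removal of each array; bars are the standard error of the limma fit, and the dotted line marks 2-fold higher. BATF2 ranges from 0.32 to 2.35 and IRF1 from -0.67 to 0.87, whereas IRF7 stays between 0.56 and 0.96.

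Across the 7 tested member probes, 4 (BATF2, IRF7, IRF2 and IRF5) were higher with ALKBH3 shRNA at both time points, as were 34.5% of all probes tested, 2 (both of IRF3) were lower at both, as were 34.2%, and IRF1 changed sides. In limma over the 4 arrays 0 members were past the cutoffs in the higher direction, against 0.886% of all probes tested, and 0 in the lower direction, against 0.232%. Over all probes 1780 had an unadjusted p below 0.05 and 0 an adjusted one. At 48 h 2 members, BATF2 and IRF7, were at least 2-fold higher, against 1.65% of all probes, and at 96 h 0 were, against 1.32%. For 6 of the 7 probes the difference was more positive at 48 h than at 96 h, with IRF5 as the exception, against 46.4% of all probes tested. These comparisons at single time points hold 1 array against 1 and have no test.

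The same arrays can be read along time. From 48 h to 96 h, 6 of the 7 member probes were lower with ALKBH3 shRNA, against 46.6% of all probes tested, and 3 were lower with control shRNA, against 50.2%. One of the 6 is IRF2, by -0.02 only, less than the median SD of repeated spots on an array (between 0.0850 and 0.0967 log2 units). The log2 signal of BATF2 differed by -2.03 between the ALKBH3 shRNA arrays and by -0.62 between the control arrays. That of IRF1 differed by -1.54 and by -0.37. IRF7 differed by -0.40 between the ALKBH3 shRNA arrays and by 0.09 between the control arrays. The median absolute difference over all probes tested was 0.191 between the ALKBH3 shRNA arrays and 0.179 between the control arrays, and each of these pairs lay on different slides.

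**Figure D3:**
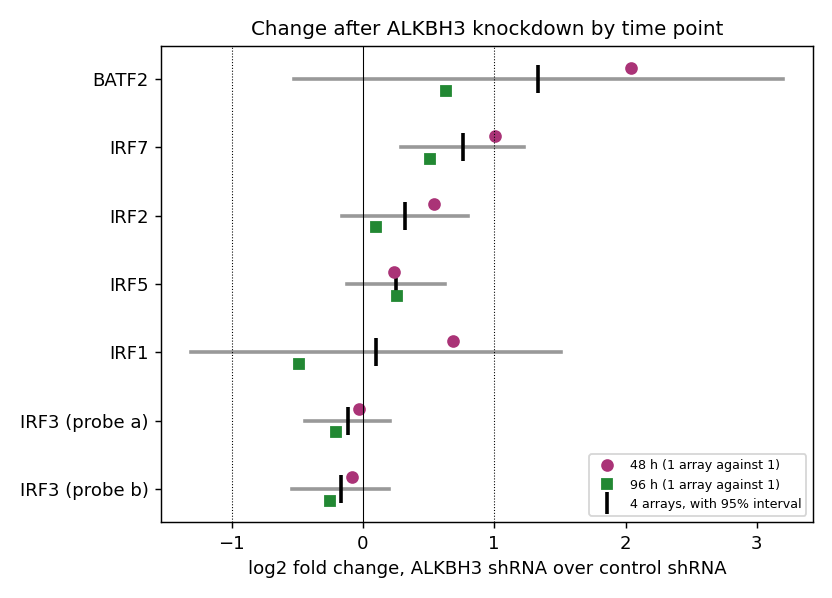
Log2 fold change of ALKBH3 shRNA over control (x axis) for the 7 tested member probes (y axis) at 48 h (circles) and 96 h (squares), 1 array against 1 each, with the fit over 4 arrays as a black bar and its 95% interval in grey; dotted lines mark 2-fold. Of these intervals only that of IRF7, 0.29 to 1.23, leaves out 0, and the IRF1 points lie on opposite sides of 0.

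The profile of BATF2, the member with the largest fold, was set against 14024 genes well above background on all 4 arrays, by the root mean square difference of log2 signals after each gene's mean was subtracted. Closest was PLAAT2, a phospholipid acyltransferase, at 0.0528, with a difference of 2.08 at 48 h and 0.76 at 96 h. GBP1, an interferon-induced GTPase, followed at 0.0901, with 2.07 and 0.38. Next was IFIT2, an antiviral RNA-response protein, at 0.103 on 1 of its 2 probes, with 1.75 and 0.60. With only 4 arrays a likeness of this kind is a description of the order and spacing of 4 values.

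Genes that act before, beside and after the IRFs were read from a list of 54 genes, of which 52 had a named probe and 45 were tested. Past the cutoffs were 3 higher genes, BATF3, IFIT1 and IFIT3, and 0 lower ones, against 1.06% and 0.24% of 14556 genes tested. The remaining 42 did not pass. The median log2 fold change of the 45 was 0.16, beside -0.0030 over all genes tested. The count rested on single arrays. It was 1 without the ALKBH3 shRNA array at 48 h or without the control array at 96 h, 6 without the control array at 48 h and 14 without the ALKBH3 shRNA array at 96 h. With arrays paired by time point it was 6, which added CXCL10, GBP1 and IFIT2. The paired fit called 1.11% of all probes tested higher, a share of probes rather than genes. The call of CXCL10 is uncertain, because its signal with control shRNA was too dim for the background call at both time points. In the paired fit 4 of the genes, BATF3, IFIT1, ISG15 and IFNLR1 (1 of its 3 probes), had a limma adjusted p below 0.05. Of all probes tested, 2.95% did so in either direction. CXCL10, GBP1, IFIT2, ISG15 and IFNLR1, and the interferons and other genes named by value below, were chosen for mention after their values were seen.

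The interferon ligands gave few readable signals. Of 8 listed, 3 were tested and 0 passed the cutoffs. IFNL1, a type III interferon, had log2 signals of -6.27 and -5.17 in control and ALKBH3 knockdown cells at 48 h and of -6.40 and -5.80 at 96 h, and was well above background on 1 of the control arrays and both ALKBH3 shRNA arrays (log2 fold change 0.85, SE 0.24, limma adjusted p = 0.529). IFNB1, the interferon beta gene, was well above background on 1 array only, with ALKBH3 shRNA at 48 h, where its log2 signal was -5.45, against -7.62 with control shRNA at 48 h and -7.51 and -6.99 at 96 h. IFNG, IFNK and IFNL3 were well above background on 0 arrays. IFNL2 and IFNE were well above background on all 4 arrays. The IFNL2 difference was 1.32 at 48 h and 0.08 at 96 h, 1 array against 1 each (log2 fold change 0.70, SE 0.42, limma adjusted p = 0.791). For IFNE it was -0.14 and -0.02. The probes of IFNL1, IFNB1, IFNG, IFNK and IFNL3 lie close to the background, where the order of signals is least certain.

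Receptor, JAK and STAT genes listed here numbered 10, all tested, with a median log2 fold change of 0.03, a range of -0.23 to 0.71 and 0 past the cutoffs. The highest was IFNLR1, a chain of the type III interferon receptor. All 3 of its probes were well above background on all 4 arrays, and only the brightest is given here. Its log2 signals were -0.74 and -0.15 in control and ALKBH3 knockdown cells at 48 h and -1.46 and -0.64 at 96 h, a log2 fold change of 0.71 (SE 0.31, limma adjusted p = 0.703, or 0.0465 with arrays paired by time point). STAT2, which with IRF9 is part of the complex that binds the ISRE, had a difference of 0.71 at 48 h and 0.10 at 96 h (log2 fold change 0.41, SE 0.39, limma adjusted p = 0.907). The adaptors and kinases that activate IRF3, IRF5 and IRF7, among them MAVS, TBK1, IKBKE and MYD88, had a median of -0.01 over 12 genes, all tested, with a range of -0.16 to 0.21 and 0 past the cutoffs.

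Among IRF9 and other partners of the members, 8 genes in all, 7 were tested and 1 passed the cutoffs. BATF3, the BATF family factor of cross-presenting dendritic cells, had log2 signals of -1.56 and -0.53 in control and ALKBH3 knockdown cells at 48 h and of -1.55 and -0.52 at 96 h. Its rise was the same at both time points, 1.02 and 1.03, for a log2 fold change of 1.03 (SE 0.11, limma adjusted p = 0.361, or 0.0300 paired by time point). BATF3 thus differed in course from BATF2, whose difference was 2.04 at 48 h and 0.63 at 96 h, but this contrast rests on 1 array per shRNA and time point and was not tested. IRF9 signals were 1.34 and 1.70 at 48 h and 0.92 and 1.29 at 96 h (log2 fold change 0.37, SE 0.23, limma adjusted p = 0.801). BATF, the remaining listed partner on the array, was not tested because it was well above background on 1 control array only.

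Of 16 genes known to be bound or activated by IRFs, 13 were tested. Past the cutoffs in the higher direction were 2, against 1.06% of all genes tested. The list was chosen with earlier results of these data known, so its counts are not independent of them. All 12 tested genes other than CXCL10 had a positive log2 fold change over the 4 arrays. At both time points 11 of the 13, CXCL10 among them, were higher, as were 34.5% of all probes tested. CXCL10 was well above background only with ALKBH3 shRNA and was tested for that reason, so its direction was partly set by the filter. The log2 fold change lay between 0.24 and 1.58 for 12 of the 13. CXCL10 has no reliable one, since its control signals were not well above background. The median of the 13 was 0.91, or 1.64 at 48 h and 0.38 at 96 h, beside -0.01 and 0.0040 at these time points over all genes tested. These medians were the same with any lower CXCL10 control signal raised to the weakest signal well above background on its array. IFIT1, an antiviral protein that binds foreign 5′ RNA ends, had log2 signals of 3.64 and 5.57 in control and ALKBH3 knockdown cells at 48 h and of 2.90 and 4.15 at 96 h (log2 fold change 1.58, SE 0.54, limma adjusted p = 0.613, or 0.0371 paired by time point). IFIT3, its binding partner, stood at 0.83 and 2.92 at 48 h and at 0.37 and 1.33 at 96 h (log2 fold change 1.52, SE 0.56, limma adjusted p = 0.637). CXCL10, the chemokine that draws CXCR3-bearing T cells, did not exceed background clearly in control cells at 48 h or 96 h. With its control signals so raised where lower, CXCL10 was 7.18-fold higher with ALKBH3 shRNA at 48 h and 1.34-fold at 96 h, each 1 array against 1. It was 3.1-fold higher over the 4 arrays (limma adjusted p = 0.663 on the signals as measured). At 48 h the control signal was not raised, so 7.18 is the measured ratio over an uncertain signal and not a lower bound. The 4 listed genes of antigen presentation by MHC class I, which IRF1 is known to drive, did not pass the cutoffs. Their differences at 48 h and 96 h were 0.97 and -0.0022 for TAP1, 1.20 and 0.42 for PSMB8, 1.11 and -0.16 for PSMB9, and 0.37 and 0.10 for NLRC5.

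**Figure D4:**
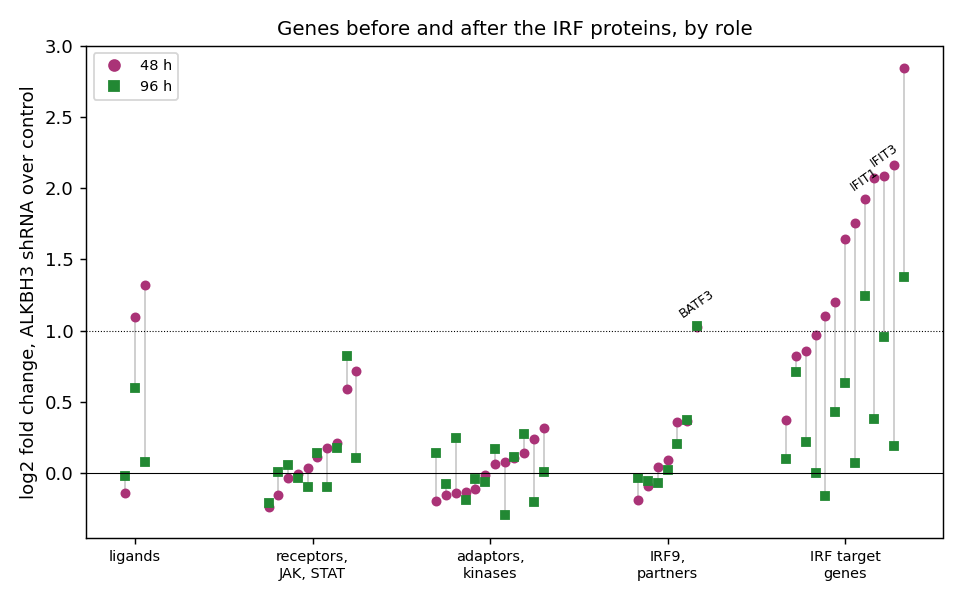
Log2 fold change of ALKBH3 shRNA over control (y axis) at 48 h (circles) and 96 h (squares) for the 45 tested genes of the IRF pathway list, grouped by role (x axis), 1 array against 1 each; a grey line joins the values of a gene, names mark the 3 genes past the cutoffs, and the dotted line marks 2-fold. The IRF target genes lie higher at 48 h than at 96 h, BATF3 lies above 1 at both, the highest point at 48 h is CXCL10, whose control signals were not well above background, and the adaptors and kinases stay near 0.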

How the data were processed

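The members and gene lists were chosen with earlier results of these data known. For each of the 4 arrays the authors deposited spot intensities from Agilent Feature Extraction (version 10.7.3.1 in the file headers), background-subtracted on that array and not normalized between arrays. A second table, of log2 values that the authors had normalized across the 4 arrays, served as an alternative. From 43118 non-control spots per array, between 180 and 379 marked as not uniform or outlying were removed. Log2 intensities were centred on the 75th percentile of each array, and spots of a probe were averaged (each member probe has 1 spot). The background call is that of the software, required of at least 0.5 of the spots of a probe, and the 23244 probes that had it on both arrays of either shRNA were tested.

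Accessions without version were looked up among RefSeq genes (GRCh38.p14), and 24910 of 34127 probes received a name, for 19102 genes. Gene positions come from the same source. Where a pathway gene had several tested probes, the brightest on average was taken. The shRNAs were compared by lmFit and eBayes of limma 3.58.1 in R 4.3.3, 2 arrays against 2 and without covariate, with Benjamini-Hochberg adjustment over all features tested, and the cutoffs were 2-fold and an unadjusted p of 0.05. Arrays of the same time point deviated together (r = 0.660 between the time differences of the shRNAs, over probes), and the time point in the labels is the source of the pairing. Named were all members, ALKBH3, IRF9, pathway genes past the cutoffs and the 3 genes closest in profile to the member of largest fold. The 14 alternatives changed background correction, normalization, centring, source, filter, unit, block, fold cutoff or left out 1 array. The unpaired fit was also run on simulated data drawn independently for each array. That simulation held no time point effect, unlike these arrays, so it does not show how the fit performs on them. The number of arrays limits the precision. Some genes of the lists are not reported here and were left out of the list counts.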

Additional observations from a re-analysis of the deposited data

Results flagged for a closer look

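IRF1 was picked out because its arrays moved in opposite directions at the time points. With ALKBH3 shRNA its signal differed by 0.69 from control at 48 h and by -0.49 at 96 h on the log2 scale, and the first exceeded the second by 1.18. The difference was not tested, since each time point holds 1 array per shRNA, and the time points lie on different slides.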

How the results depend on the processing

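Counts were taken under 14 alternatives and each member probe was refitted under 13 of them, or 12 for the first IRF3 probe, which the fit by genes leaves out. With an array left out, the lone array of a group is assumed to vary like the other group. The number of members past the cutoffs in the higher direction was 0 in the fit as reported and between 0 and 1 when each array was left out in turn. It was 1 (BATF2) with normexp background correction, with the authors' normalized table and under time point as a replicate block, and 1 (IRF7) with a 1.5-fold cutoff. BATF2 had a log2 fold change of 1.22, 1.32 and 1.34 in the first 3 of these and of 2.35 without the ALKBH3 shRNA array at 96 h, which also called it, and its adjusted limma p lay between 0.117 and 0.9999 over the alternatives. No member was past the cutoffs in the lower direction under any of them. The log2 fold change of IRF1 reversed to -0.67 without the ALKBH3 shRNA array at 48 h and to -0.08 without the control array at 96 h, within a range of -0.67 to 0.87 over the arrays left out. IRF7 kept its direction throughout, from 0.56 to 0.96 with an array left out and from 0.73 to 0.91 otherwise, with an adjusted limma p between 0.0703 and 0.842. IRF2, the dimmest tested member, ranged from 0.03 to 0.34 with all 4 arrays and from 0.11 to 0.53 with an array left out. Pathway genes past the cutoffs in the higher direction numbered 3 as reported, 6 with the time point as a replicate block, between 1 and 14 with an array left out and between 2 and 4 otherwise. The replicate block changed no other member's call. The cause of these changes was not tested. With 2 arrays per shRNA, fold changes under 2 rest on few values, and signals near background, such as those of IRF2, IFNL1 and IFNB1, are the least certain.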
